A study of Mus musculus with 12 samples.

Results

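A set of 10 genes that control how muscle builds mitochondria and answers to exercise were followed in 2 strains of mice. B6.CAST-17 mice were homozygous for a congenic segment which, by the strain name, is CAST chromosome 17 on a B6 background, and wild type B6 mice served as their controls. All mice were male and no treatment is recorded. Age is not given in the sources used here. Skeletal muscle and hypothalamus were profiled on 12 one-colour arrays in 4 groups of 3, namely congenic muscle, wild type muscle, congenic hypothalamus and wild type hypothalamus. The submitters describe the 3 arrays of a strain as different animals. Groups follow the titles, since the sample descriptions give every array, wild type ones included, the congenic strain. Only the hypothalamus titles add the word short to the congenic mice, and the muscle taken is not stated. Every probe that the platform annotation assigns to one of the 10 genes alone was kept apart, which gave 11 of 33012 probes, 2 of them for Nrf1 and 1 for each other gene. These are 10 of 13835 genes named on the array. None of the 10 lies on chromosome 17 in the gene table of mouse assembly GRCm38.p6.

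Mitochondrial biogenesis in muscle is driven by transcriptional coactivators of the PGC-1 family, which act on genes through transcription factors such as NRF1 and the oestrogen-related receptor ERR-alpha. These factors switch on nuclear genes for mitochondrial proteins, among them Tfam, whose product packages and transcribes mitochondrial DNA. Contraction and fasting act upstream through the kinase AMPK, the deacetylase SIRT1, calcium signals that reach MEF2 factors, and cyclic AMP, which also induces the nuclear receptor Nr4a3.

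For 9 of the 10 genes, promoter windows from 250 bases before to 50 bases after a RefSeq transcript start were at hand on GRCm38.p6, 12 windows in all. Of these genes 5 (Nr4a3, Prkaa2, Ppargc1a, Hk2 and Sirt1) held the cyclic AMP response element half-site TGACG on either strand. Each of the 5 had 1 window, so 5 of the 12 windows held the half-site, against 20.8% of all 32851 promoter windows. Nr4a3 had 4 matches and each of the others 1. The promoters of Nr4a3, Ppargc1a and Hk2 are shown as examples that hold the half-site, and that of Tfam because it is the classical NRF1 target. Of the 5 genes with a half-site, Nr4a3, Hk2 and, barely, Ppargc1a had separate congenic and wild type muscle arrays, and Prkaa2 and Sirt1 overlapped. With no half-site in any window, Mef2c and both Nrf1 probes were separate, and Tfam and Esrra overlapped. A link between the half-site and the strain difference was not tested. The printed promoters lie at chr4:48045055-48045354 (plus strand), chr5:51567676-51567975 (minus strand), chr6:82774405-82774704 (minus strand) and chr10:71237995-71238294 (minus strand), and are printed 5′ to 3′ on the strand of the gene. Capitals mark TGACG or its reverse complement CGTCA, and in Tfam the ETS core CCGGAAG.
Nr4a3: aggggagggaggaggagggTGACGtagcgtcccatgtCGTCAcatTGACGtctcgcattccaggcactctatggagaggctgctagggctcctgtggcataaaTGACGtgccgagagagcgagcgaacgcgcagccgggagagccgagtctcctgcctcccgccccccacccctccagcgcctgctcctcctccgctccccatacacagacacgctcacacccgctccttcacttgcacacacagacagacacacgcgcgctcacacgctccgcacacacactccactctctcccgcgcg
Ppargc1a: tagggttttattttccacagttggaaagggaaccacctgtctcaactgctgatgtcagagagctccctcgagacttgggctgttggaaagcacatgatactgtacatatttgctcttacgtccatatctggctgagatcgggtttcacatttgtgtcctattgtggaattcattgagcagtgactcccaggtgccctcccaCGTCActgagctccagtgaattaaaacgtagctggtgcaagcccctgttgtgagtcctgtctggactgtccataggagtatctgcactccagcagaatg
Hk2: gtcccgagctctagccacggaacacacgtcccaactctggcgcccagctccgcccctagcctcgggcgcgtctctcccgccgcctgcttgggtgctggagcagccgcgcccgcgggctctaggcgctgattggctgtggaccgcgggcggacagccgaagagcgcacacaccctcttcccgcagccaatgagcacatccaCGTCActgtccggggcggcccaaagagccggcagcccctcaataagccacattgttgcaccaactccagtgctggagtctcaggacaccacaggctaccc
Tfam: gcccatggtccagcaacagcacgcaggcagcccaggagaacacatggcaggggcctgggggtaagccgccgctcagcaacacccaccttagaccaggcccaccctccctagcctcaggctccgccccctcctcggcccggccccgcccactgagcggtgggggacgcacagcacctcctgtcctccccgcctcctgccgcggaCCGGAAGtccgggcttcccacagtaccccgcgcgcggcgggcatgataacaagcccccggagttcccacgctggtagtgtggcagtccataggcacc
The ETS core, the kind of site bound by GABPA (also called NRF2), was found on either strand in 8.86% of all windows, and among the 9 genes in Tfam alone. The palindromic NRF1 site was matched in none of the 12 windows and in 4.60% of all. The E-box CACGTG occurred 2 times in the Sirt1 window and in 7.15% of all windows. The ERR half-site AAGGTCA occurred 1 time, in 1 of the 3 Mef2c windows, against 4.72% of all. The MEF2 consensus occurred 1 time, in 1 of the 2 Nrf1 windows, against 3.19% of all. In the sequences printed no motif overlapped another, whereas in Sirt1 an E-box overlapped the half-site.

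No regulator passed the test of the strain difference in either tissue. In muscle, limma (a linear model with a spread moderated across all probes) called 6 of 33012 probes at an adjusted p under 0.05, or 0.0182%, and 0 of the 11 regulator probes, whose Benjamini-Hochberg adjusted p-values were 0.835 to 1.0. The values nevertheless leaned one way: 9 of the 11 probes had a lower mean in congenic muscle, where 49.0% of all probes did. Their median difference, congenic minus wild type, was -0.40 (log2), against 0.01 over all probes. The 3 congenic arrays lay below the 3 wild type arrays for 5 probes (5.27% of all probes did so) and above them for 1 probe (6.65%). Ppargc1a was among the 5 by a near tie, with 13.1858 on congenic array 2 and 13.1863 on wild type array 3. With 3 arrays against 3, a separation without overlap reaches at best an exact two-sided p of 0.1. Congenic muscle array 3 carried much of the size of the lean, so each difference of a regulator in muscle is also given without that array. Several of the probes moved together on that array, so the 11 signs are not independent. The regulators were also chosen with earlier results of these data known, so the shares over all probes are no test of the lean.

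The deposited values are taken as log2 intensities, a base inferred from their range, so folds rest on it. Muscle arrays ran from 5.63 to 21.13 with a median of 9.12 and hypothalamus arrays from 5.35 to 21.11 with a median of 8.98. No detection calls were available. Spearman correlations across probes put congenic muscle array 3 slightly lowest within its tissue, with a median of 0.806 to the other 5 arrays, against 0.826 to 0.842 for the others. Wild type hypothalamus array 1 stood far apart, with a median of 0.443 against 0.793 to 0.818 for the other 5. The tissue labels were borne out by markers: 10 measured skeletal muscle genes averaged 19.44 to 19.50 in congenic and 19.35 to 19.58 in wild type muscle, and 9.87 or less in hypothalamus. In tissue RNA, fewer cells of a type and less RNA per cell cannot be told apart. Among other cell types in muscle, 5 of 7 macrophage markers were measured and averaged 13.54 to 13.72 in congenic and 12.71 to 13.17 in wild type muscle, and 7 of 7 fibroblast markers averaged 15.33 to 15.45 and 15.03 to 15.14. The 5 endothelial markers averaged 11.26 to 11.99 and 11.84 to 12.29. The 6 slow fibre genes averaged 10.96 to 11.88 and 11.39 to 11.55, and 3 of 7 blood markers 12.24 to 13.33 and 12.06 to 12.60. The part of these cell types in the differences below was not tested.

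Among the coactivators, Ppargc1a encodes PGC-1-alpha, the member most strongly induced by exercise and cold. Its probe read 13.04, 13.19 and 11.69 (log2) on congenic muscle arrays 1, 2 and 3, and 13.22, 13.22 and 13.19 on the wild type muscle arrays. The wild type arrays were nearly identical (SD 0.02, n = 3), congenic array 2 equalled the lowest of them to the decimals given, and only congenic array 3 was far below. The difference was -0.57 (SE 0.36, 95% interval -1.37 to 0.23; limma adjusted p = 0.835), and it shrank to -0.10 (-0.42 to 0.23) without congenic array 3. Ppargc1b encodes PGC-1-beta, a relative expressed in tissues rich in mitochondria, and its pattern across the congenic arrays was the opposite. It read 12.77, 12.68 and 13.53 on the congenic arrays and 13.46, 13.11 and 13.31 on the wild type arrays, so congenic arrays 1 and 2 were below every wild type array and array 3 above. The difference of -0.30 (SE 0.26, interval -0.88 to 0.28; limma adjusted p = 0.851) became -0.57 (-0.94 to -0.20; adjusted p = 0.911) with array 3 left out.

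The transcription factors that PGC-1 proteins work with gave mixed values. For Nrf1, the nuclear respiratory factor, the brighter probe (453299) read 10.44, 10.18 and 9.49 in congenic muscle, against 11.10, 10.64 and 10.68 in wild type muscle, with no overlap. Its difference was -0.77 (SE 0.36, interval -1.59 to 0.04; limma adjusted p = 0.835), or 1.71-fold lower in congenic muscle, and -0.50 without congenic array 3. The dimmer Nrf1 probe (396564) went the other way, with 8.75, 11.52 and 9.19 on the congenic and 8.52, 8.28 and 8.42 on the wild type arrays. Here congenic array 2 was high by itself, and the wild type arrays averaged only percentile 33.4 of all probes. The difference was 1.41 (SE 0.68, interval -0.11 to 2.92, limma adjusted p = 0.835), or 1.72 without congenic array 3. Without congenic array 2 it was 0.56. The 2 Nrf1 probes thus disagreed in sign, and they carry the same transcript accession in the annotation. Esrra, which encodes ERR-alpha, read 14.55, 14.68 and 15.10 in congenic muscle and 14.77, 14.63 and 14.92 in wild type muscle. These groups overlapped throughout, with a difference of 0.00 (interval -0.43 to 0.43; limma adjusted p = 1.0) over 6 arrays and -0.16 (-0.46 to 0.14) without congenic array 3.

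Tfam, the mitochondrial transcription factor, stood at 14.08, 14.09 and 13.74 on the congenic and 13.95, 14.33 and 14.24 on the wild type muscle arrays. The groups overlapped, and the difference of -0.20 had an interval of -0.63 to 0.23 (SE 0.19; limma adjusted p = 0.858). Without congenic array 3 it was -0.09 (-0.42 to 0.25).

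Mef2c, a factor of the MEF2 family that drives muscle gene programmes, had the largest negative difference of the 11 probes. It read 15.26, 15.32 and 13.18 in congenic muscle and 15.56, 15.73 and 15.68 in wild type muscle, so all congenic arrays were below all wild type arrays and array 3 far below. The difference was -1.07 (SE 0.48, interval -2.14 to -0.01; limma adjusted p = 0.835), or 2.10-fold lower. With congenic array 3 left out it was 1.29-fold lower, at -0.37 (-0.63 to -0.11; adjusted p = 0.911), and the remaining 2 congenic arrays still lay under the 3 wild type arrays.

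Nr4a3 (NOR-1), an orphan nuclear receptor whose transcript rises quickly after muscle contraction, depended least on array 3. Its values were 14.78, 14.92 and 14.74 in congenic muscle, against 15.32, 15.34 and 14.94 in wild type muscle. All congenic values were lower, though congenic array 2 and wild type array 3 differed by little. The difference was -0.39 (SE 0.17, interval -0.78 to 0.00; limma adjusted p = 0.835), or 1.31-fold lower, and -0.35 without congenic array 3. Hk2, the insulin- and exercise-responsive hexokinase that traps glucose in the muscle fibre, read 16.82, 16.74 and 16.25 in congenic muscle and 16.87, 17.12 and 17.02 in wild type muscle. The groups again did not overlap, by a margin of a few hundredths, and the difference of -0.40 (SE 0.18, interval -0.81 to 0.01; limma adjusted p = 0.835), or 1.32-fold lower, became -0.22 (-0.49 to 0.05) without congenic array 3.

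The upstream sensors overlapped between strains. Prkaa2 encodes the catalytic alpha-2 subunit of AMPK, the main one in muscle. Its probe gave 15.71, 15.65 and 14.64 on the congenic and 15.62, 16.01 and 15.70 on the wild type arrays, where only congenic array 3 was outside the wild type range. The difference of -0.44 (SE 0.28, interval -1.06 to 0.18; limma adjusted p = 0.835) became -0.09 (-0.41 to 0.22) without that array. Sirt1, an NAD-dependent deacetylase that acts on PGC-1-alpha, varied within both strains, with 11.04, 10.54 and 10.08 in congenic and 10.60, 11.40 and 11.31 in wild type muscle. Its difference was -0.55 (SE 0.36, interval -1.36 to 0.27; limma adjusted p = 0.835), and -0.31 without congenic array 3.

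**Figure D1:**
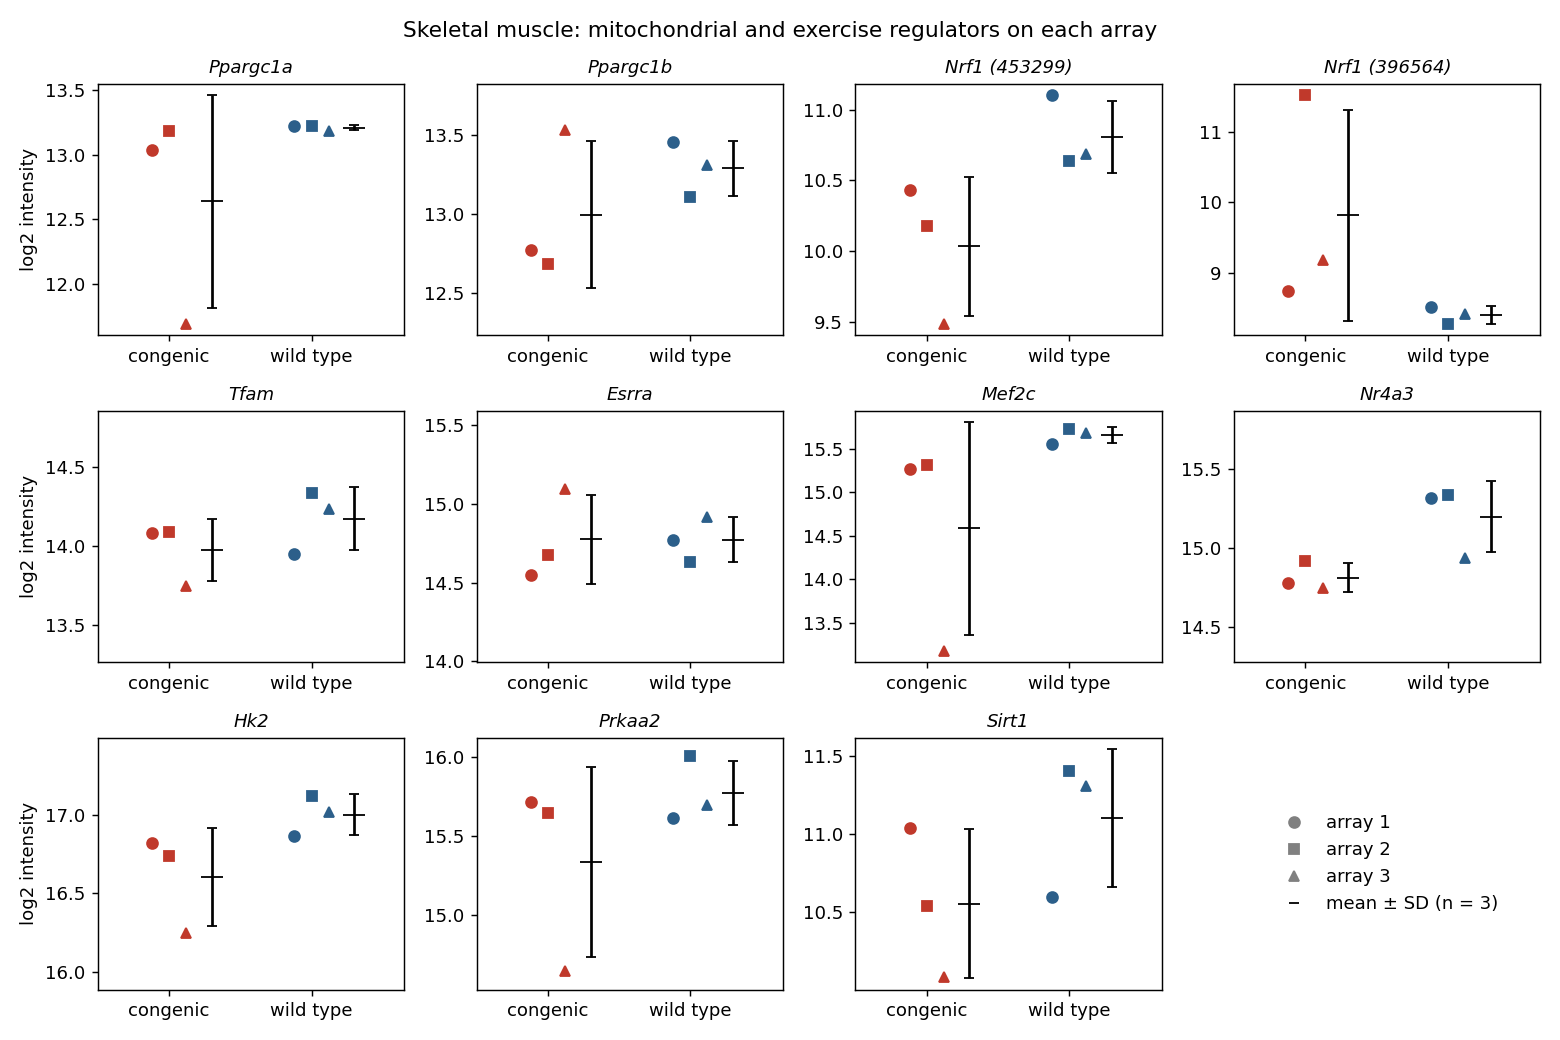
Log2 intensity (vertical axis, one scale per panel) of the 11 probes on each skeletal muscle array, congenic in red on the left and wild type in blue on the right, with mean and SD (n = 3) in black. Congenic array 3 (triangle) is the lowest congenic value for Ppargc1a, Mef2c and Prkaa2, among others, and the highest for Ppargc1b and Esrra.

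Across the 11 probes, leaving out congenic array 3 left 10 of 11 means lower in congenic muscle, where 51.2% of all probes were, and reduced the median difference to -0.22. Then 6 probes were lower without overlap, against 10.1% of all probes, and 1 was higher, against 11.0%. Ppargc1a was again among the 6 by the same near tie. An unadjusted limma p under 0.05 was reached by 1 of the 11 probes with all arrays and by 4 without array 3. These 4 were Ppargc1b, Mef2c, Nr4a3 and the dimmer Nrf1 probe, which was high on congenic array 2 by itself. By this criterion 2.09% of all probes were lower and 2.92% higher with all arrays, and 2.24% and 3.00% without array 3. For Ppargc1b the array left out was the only congenic array above the wild type arrays. Array 3 was left out in view of the values of these same probes, so the rise from 1 to 4 is no test. Adjusted limma p-values of the 11 without array 3 were 0.911 to 0.956, so none passed where 0.0242% of all probes did.

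**Figure D2:**
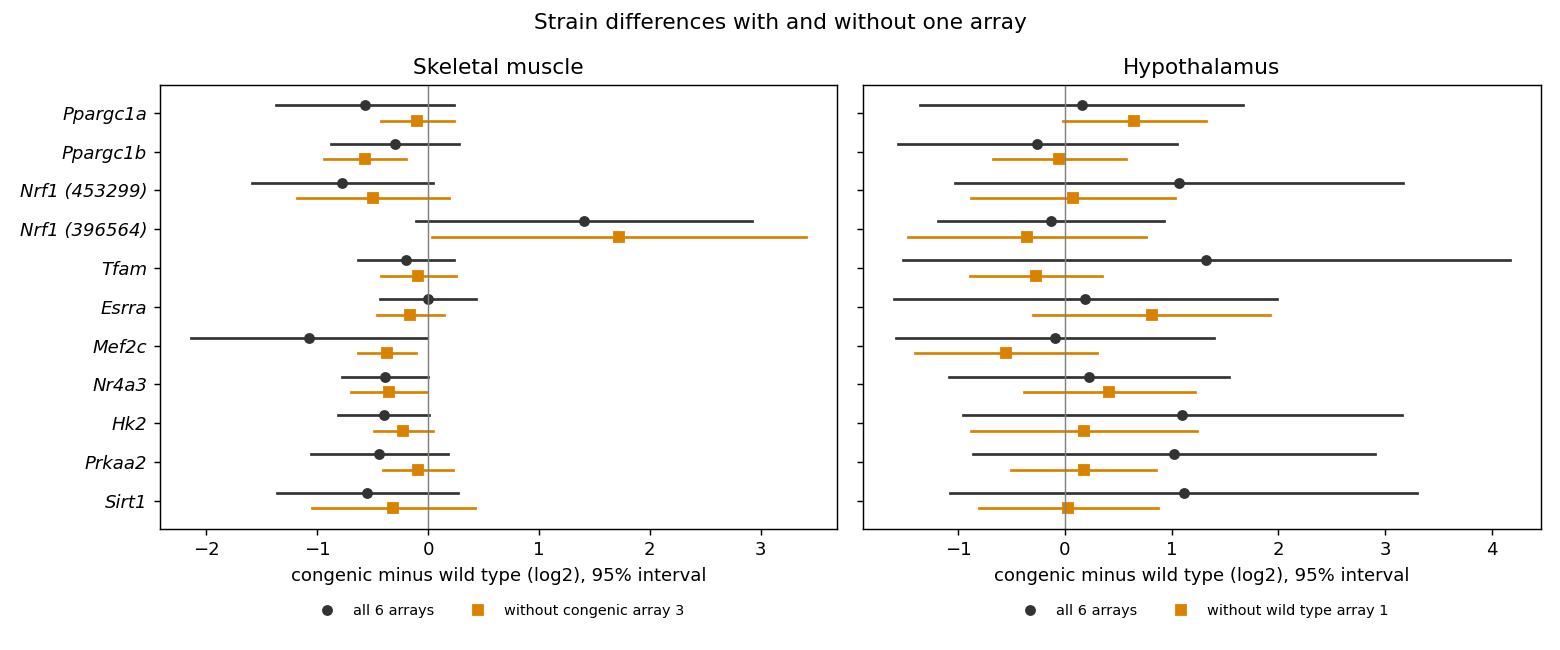
Difference of each probe, congenic minus wild type on the log2 scale, with its 95% limma interval, in skeletal muscle (left panel) and hypothalamus (right panel). Circles use all 6 arrays, and squares leave out congenic array 3 in muscle or wild type array 1 in hypothalamus. In muscle Ppargc1a moves from -0.57 to -0.10 and Mef2c from -1.07 to -0.37, while Nr4a3 stays near -0.4.

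How far array 3 stood out was measured as the deviation of each array from the median of the other 5 muscle arrays. On congenic array 3 Mef2c deviated by -2.38 (log2), and 0.891% of all 33012 probes deviated as far down or farther on that array. Ppargc1a deviated by -1.50 (4.07% of probes as low), the brighter Nrf1 probe by -1.15 (7.08%), Prkaa2 by -1.06 (8.26%) and Sirt1 by -0.96 (9.77%). Ppargc1b, Esrra and the dimmer Nrf1 probe deviated upward instead, by 0.42, 0.42 and 0.66. The median deviation of the 11 probes was -0.62 on congenic array 3, against -0.15 and -0.09 on congenic arrays 1 and 2 and 0.04 to 0.25 on the wild type arrays. Congenic array 3 also had the widest spread over all probes, with an SD of 0.824 against 0.576 to 0.657 on the other 5. On congenic arrays 1 and 2, 8 and 9 of the 11 probes were below the median of the other arrays. On wild type arrays 1, 2 and 3 the counts were 4, 3 and 1.

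**Figure D3:**
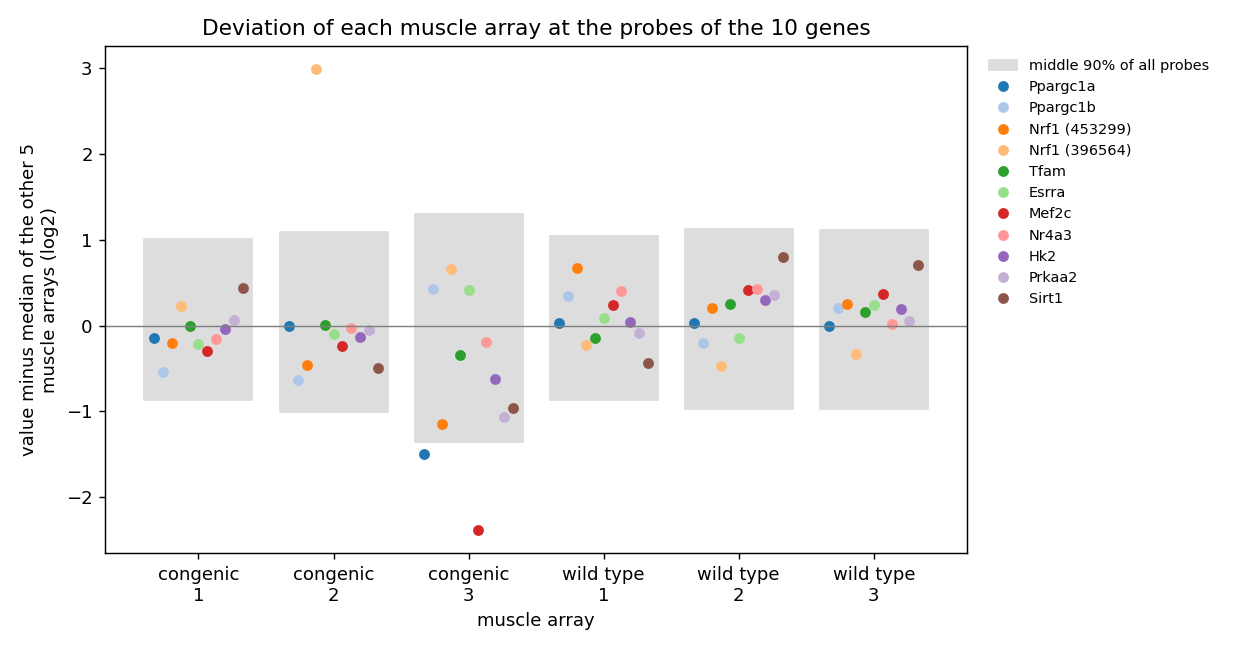
Deviation of each of the 11 probes on each muscle array from the median of the other 5 muscle arrays (vertical axis, log2), with the middle 90% of all probes on that array in grey. On congenic array 3 Mef2c (-2.38) and Ppargc1a (-1.50) fall below the grey band, and on congenic array 2 the dimmer Nrf1 probe rises above it.

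Patterns over the 6 muscle arrays followed the same array. Among 14410 other probes with 1 gene symbol, those most like Ppargc1a by Pearson correlation were Mtf2, a Polycomb-associated protein (r = 0.999), Pak3, a p21-activated kinase (0.999), and Cetn2, a centrin of the centrosome (0.998). All of them were lowest on congenic array 3, as shown by Mtf2 at 13.64, 13.81 and 12.40 on the congenic arrays and 13.85, 13.87 and 13.77 on the wild type arrays. Of the regulators, Mef2c (r = 0.990) and Prkaa2 (0.955) followed Ppargc1a closely, and Hk2 (0.906) and the brighter Nrf1 probe (0.853) less so, while Esrra (-0.737) and Ppargc1b (-0.478) ran against it. These coefficients describe 6 arrays from 1 normalization, and 491 of the 14410 probes exceeded 0.95.

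The wider pathway was read from 9 lists of related genes, the probe with the highest mean standing for a gene. Over 13835 named genes 46.6% were lower in congenic muscle, with a median difference of 0.03 (log2), and 51.5% without congenic array 3, with a median of -0.01. In each of the 9 lists 0 genes passed limma at an adjusted p under 0.05 in muscle or hypothalamus. Among PGC-1 partners 6 of 7 measured genes were lower in congenic muscle, with a median of -0.22. Med1, a Mediator subunit, differed by -0.96, the cyclic AMP response factor Creb1 by -0.87, the corepressor Nrip1 by -0.33 and the acetyltransferase Kat2a by -0.22 (limma adjusted p = 0.835 to 0.909). Without congenic array 3 Creb1 gave -0.12, Nrip1 0.19 and Kat2a -0.57, and the median of the list was -0.16.

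Genes that copy and transcribe mitochondrial DNA were lower in 9 of 15 cases, with a median of -0.18 and of -0.11 without congenic array 3. Tfb2m, the partner of the mitochondrial RNA polymerase, differed by -0.81 and the helicase Twnk by -0.75, while Polg2, the accessory subunit of the mitochondrial DNA polymerase, differed by 0.78 and the termination factor gene Mterf1a by 0.41 (limma adjusted p = 0.835 to 0.847). Without congenic array 3 Tfb2m gave -0.17, Twnk -0.86 and Polg2 0.62. Nuclear receptors and respiratory factors were lower in 5 of 10 cases, with a median of -0.06. With all 6 arrays the largest differences beside the brighter Nrf1 probe were positive, 0.65 for the ERR family member Esrrg, 0.64 for Pparg and 0.64 for Ppard (limma adjusted p = 0.835 to 0.847). Without congenic array 3 these gave 0.55, 0.58 and 0.73. The largest value was then negative, -1.35 for Gabpa, a subunit of NRF2, with -0.58 for Ppara. Both were chosen for mention after their values were seen (limma adjusted p = 0.911). Gabpa then overlapped between strains, at 8.20 ± 0.37 in congenic and 9.54 ± 1.39 in wild type muscle (SD). With all arrays Gabpa gave -0.40.

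AMPK subunits and upstream kinases were lower in 5 of 10 cases, with a median of -0.01 that became -0.13 without congenic array 3. Cab39, a scaffold of the kinase LKB1, differed by -0.71, and by -0.19 without that array, whereas Camkk2, a calcium-dependent AMPK kinase, differed by 0.46 and the AMPK beta-1 subunit gene Prkab1 by 0.35 (limma adjusted p = 0.835), or 0.37 and 0.22 without that array. Sirtuins and NAD genes were lower in 4 of 10 cases, with a median of 0.01, but in 9 of 10 without congenic array 3. Nampt, the rate-limiting enzyme of NAD salvage, was lower without overlap (11.79 ± 0.15 in congenic and 12.24 ± 0.08 in wild type muscle, SD, n = 3 each), with a difference of -0.44 (limma adjusted p = 0.835) and -0.36 without congenic array 3. Parp1, which consumes NAD, differed by -0.25 and Nmnat3 by -0.15 (limma adjusted p = 0.909 and 0.947). They gave -0.69 and -0.05 without congenic array 3, and Parp1 was then lower without overlap (limma adjusted p = 0.911). So were Kat2a, Twnk and Ppara, named above, and some genes of the lists that are not named. Without that array 10.1% of all probes were lower without overlap.

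Of the MEF2 factors and class IIa deacetylases 5 of 9 were lower, with a median of -0.06, and beside Mef2c the values were -0.41 for Mef2a, -0.32 for Mef2d and 0.26 for the deacetylase Hdac4 (limma adjusted p = 0.835 to 0.867). These gave -0.17, -0.25 and 0.16 without congenic array 3. Among NR4A and exercise-induced genes 8 of 15 were lower, with a median of -0.23 and of -0.21 without congenic array 3. The lipase inhibitor Angptl4 differed by 0.91, and by 0.37 without congenic array 3, the immediate early gene Fos by -0.52 and the salt-inducible kinase Sik1 by -0.42 (limma adjusted p = 0.835 to 0.918). Sik1 gave -0.91 without congenic array 3. In the hexokinase list Hk1 differed by 0.08 and Hkdc1 by -0.13, beside -0.40 for Hk2, so 2 of 3 were lower. Hk1 gave -0.07 and Hkdc1 -0.33 without congenic array 3, and 3 of 3 were then lower. Fusion and fission genes were lower in 5 of 7 cases, with a median of -0.08, and in 3 of 7 without congenic array 3. Mief1, which recruits the fission GTPase to mitochondria, gave 1.10 (limma adjusted p = 0.835), the fusion genes Mfn2 and Mfn1 gave -0.53 and -0.38, and the fission GTPase gene Dnm1l gave -0.40. The wild type muscle mean of Mief1, 7.96, lay under the 20th percentile of muscle values, 8.02. Near that percentile were also Hkdc1 (7.96 in congenic and 8.09 in wild type muscle) and Nmnat3 (7.91 and 8.06). One group mean was not far above it for Ppard (8.88 in congenic and 8.24 in wild type muscle) and Med1 (8.42 and 9.37). The same held for Gabpa without congenic array 3 (8.20 in congenic muscle). Without congenic array 3 Dnm1l gave 0.08, Mfn1 -0.16 and Mfn2 -1.12. Of the genes named in these lists that are not among the 10 regulators, Nampt and Mef2d were lower without overlap and Esrrg, Polg2, Prkab1 and Mief1 higher. They were named for the size of this same difference. The shares over all probes (5.27% lower and 6.65% higher) are therefore no measure for them. Vegfa and Mterf2, measured in the lists but not named for size, were also lower without overlap. Medians of the lists of nuclear receptors, sirtuins, MEF2 factors, hexokinases, and fusion and fission genes were -0.17, -0.08, 0.04, -0.22 and 0.00 without congenic array 3.

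**Figure D4:**
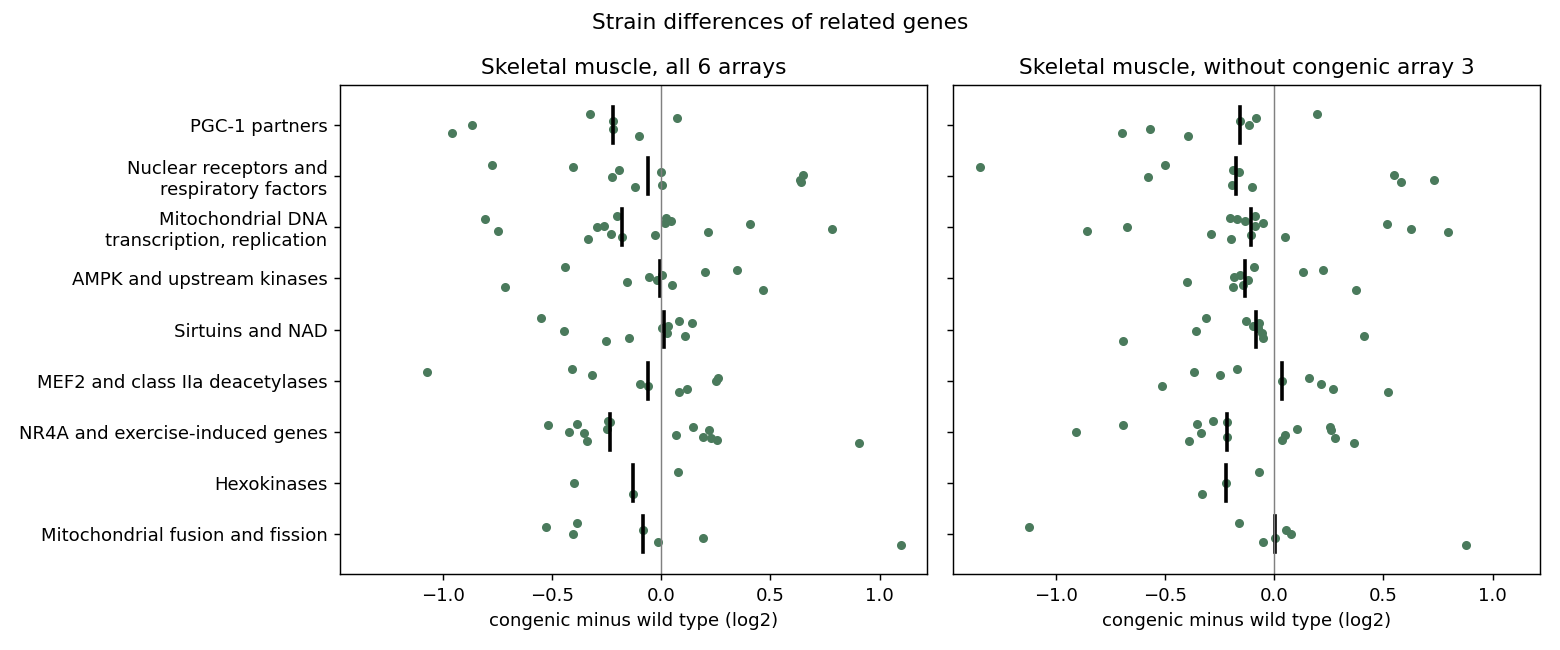
Difference, congenic minus wild type on the log2 scale, of every measured gene of the 9 related lists in skeletal muscle, with all 6 arrays (left) and without congenic array 3 (right); the black bar is the median of the list. The medians lie between -0.23 and 0.01 with all arrays, and 0 genes passed the test.

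Levels in hypothalamus were set beside those in muscle without a test, because the arrays of each tissue had been normalized on their own. Hk2, Mef2c and Prkaa2 were far higher in muscle. Hk2 averaged 16.60 ± 0.31 in congenic and 17.00 ± 0.13 in wild type muscle, and 10.79 ± 0.72 in congenic and 9.69 ± 1.60 in wild type hypothalamus (SD, n = 3 each), or percentiles 97.0, 97.6, 70.4 and 52.5 of all probes. Mef2c averaged 14.59 ± 1.22, 15.66 ± 0.09, 10.03 ± 0.22 and 10.12 ± 0.79 in the same order of groups. Prkaa2 averaged 15.33 ± 0.60 in congenic and 15.77 ± 0.21 in wild type muscle, against 12.51 ± 0.28 in congenic and 11.48 ± 1.48 in wild type hypothalamus. For Tfam and for Esrra, too, the 6 muscle values lay above the 6 hypothalamus values. For the remaining probes the muscle and hypothalamus values overlapped. Ppargc1a averaged 12.64 ± 0.82 in congenic and 13.21 ± 0.02 in wild type muscle, and 12.75 ± 0.27 and 12.59 ± 0.86 in congenic and wild type hypothalamus. Its congenic muscle mean was 13.11 ± 0.10 (n = 2) without congenic array 3, so the order of the groups depends on that array. For Ppargc1b all neighbouring means, from 12.99 ± 0.47 in congenic muscle to 13.37 ± 0.36 in wild type hypothalamus, lay within the larger SD.

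In hypothalamus limma called 0 of 33012 probes (0%) at an adjusted p under 0.05, while 1.19% were lower and 0.806% higher at an unadjusted p under 0.05. The 8 neuron markers averaged 12.96 to 13.62 in congenic and 12.34 to 12.93 in wild type hypothalamus, and 9.55 or less in muscle. Markers of other cell types varied between hypothalamus arrays, most of all those of oligodendrocytes and anterior pituitary: 5 oligodendrocyte genes averaged 9.65 to 13.44 in congenic and 8.13 to 10.29 in wild type, and 6 anterior pituitary genes 10.05 to 15.00 and 10.12 to 10.59. The 3 astrocyte genes averaged 10.94 to 12.39 in congenic and 10.70 to 10.89 in wild type hypothalamus, with no overlap. The neuron markers did not overlap either, by a narrow margin. Macrophage genes averaged 11.56 to 12.82 and 12.25 to 12.36, fibroblast genes 10.38 to 11.61 and 10.98 to 11.53, and endothelial genes 9.90 to 10.56 and 9.72 to 11.08. Their part in the values below was not tested. None of the 11 regulator probes had an unadjusted p under 0.05 (0.245 to 0.892, adjusted p = 0.936 to 0.980). The strains overlapped for all 11, where 5.69% of all probes were lower and 3.47% higher without overlap, and 3 means were lower in congenic hypothalamus, where 53.7% of all probes were. Wild type hypothalamus array 1 set most of the spread. Tfam read 12.32, 12.46 and 12.11 in congenic hypothalamus and 7.78, 12.59 and 12.54 in wild type hypothalamus, and Sirt1 read 11.38, 10.65 and 11.37 against 7.86, 10.91 and 11.28. Hk2 read 10.74, 11.53 and 10.09 against 7.85, 10.57 and 10.65, Prkaa2 12.80, 12.50 and 12.25 against 9.78, 12.49 and 12.18, and the brighter Nrf1 probe 10.91, 10.11 and 10.69 against 7.51, 10.85 and 10.13. In each of these 5 the first wild type array was the lowest of the 6. It was the highest for Ppargc1a, with 12.90, 12.90 and 12.44 in congenic and 13.57, 11.97 and 12.22 in wild type hypothalamus, and for Esrra, with 13.95, 13.68 and 12.28 against 14.35, 12.50 and 12.48.

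Over all 6 hypothalamus arrays the differences were 1.32 for Tfam (SE 1.24), 1.11 for Sirt1 (0.95), 1.10 for Hk2 (0.90), 1.07 for the brighter Nrf1 probe (0.92) and 1.03 for Prkaa2 (0.82). Without wild type array 1 the same 5 were -0.27, 0.03, 0.18, 0.08 and 0.18, and 4 of the 11 means were lower in congenic hypothalamus, where 50.7% of all probes were. None of the 11 then had an unadjusted p under 0.05, where 3.22% of all probes were lower and 2.11% higher, and again 0% passed the adjusted test. Ppargc1a differed by 0.16 (interval -1.35 to 1.67) with all arrays and by 0.65 (-0.02 to 1.32; limma adjusted p = 0.900) without wild type array 1, and then the 3 congenic values lay above both wild type values, as for 9.32% of all probes. Tfam and Mef2c, at -0.27 and -0.55 (interval -1.40 to 0.31), were then lower without overlap, as were 13.3% of all probes. Mef2c read 10.28, 9.97 and 9.84 in congenic hypothalamus and 9.21, 10.64 and 10.52 in wild type hypothalamus. Esrra differed by 0.19 with all arrays and 0.81 (-0.30 to 1.92) without wild type array 1. Nr4a3 read 15.11, 14.88 and 14.80 in congenic and 15.09, 14.95 and 14.08 in wild type hypothalamus, with differences of 0.23 and 0.42 on the 2 sets of arrays. Ppargc1b, at 12.97, 13.03 and 13.35 against 13.78, 13.22 and 13.12, gave -0.26 and -0.05, and the dimmer Nrf1 probe, at 8.58, 7.94 and 8.10 against 7.88, 8.36 and 8.75, gave -0.13 and -0.35.

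**Figure D5:**
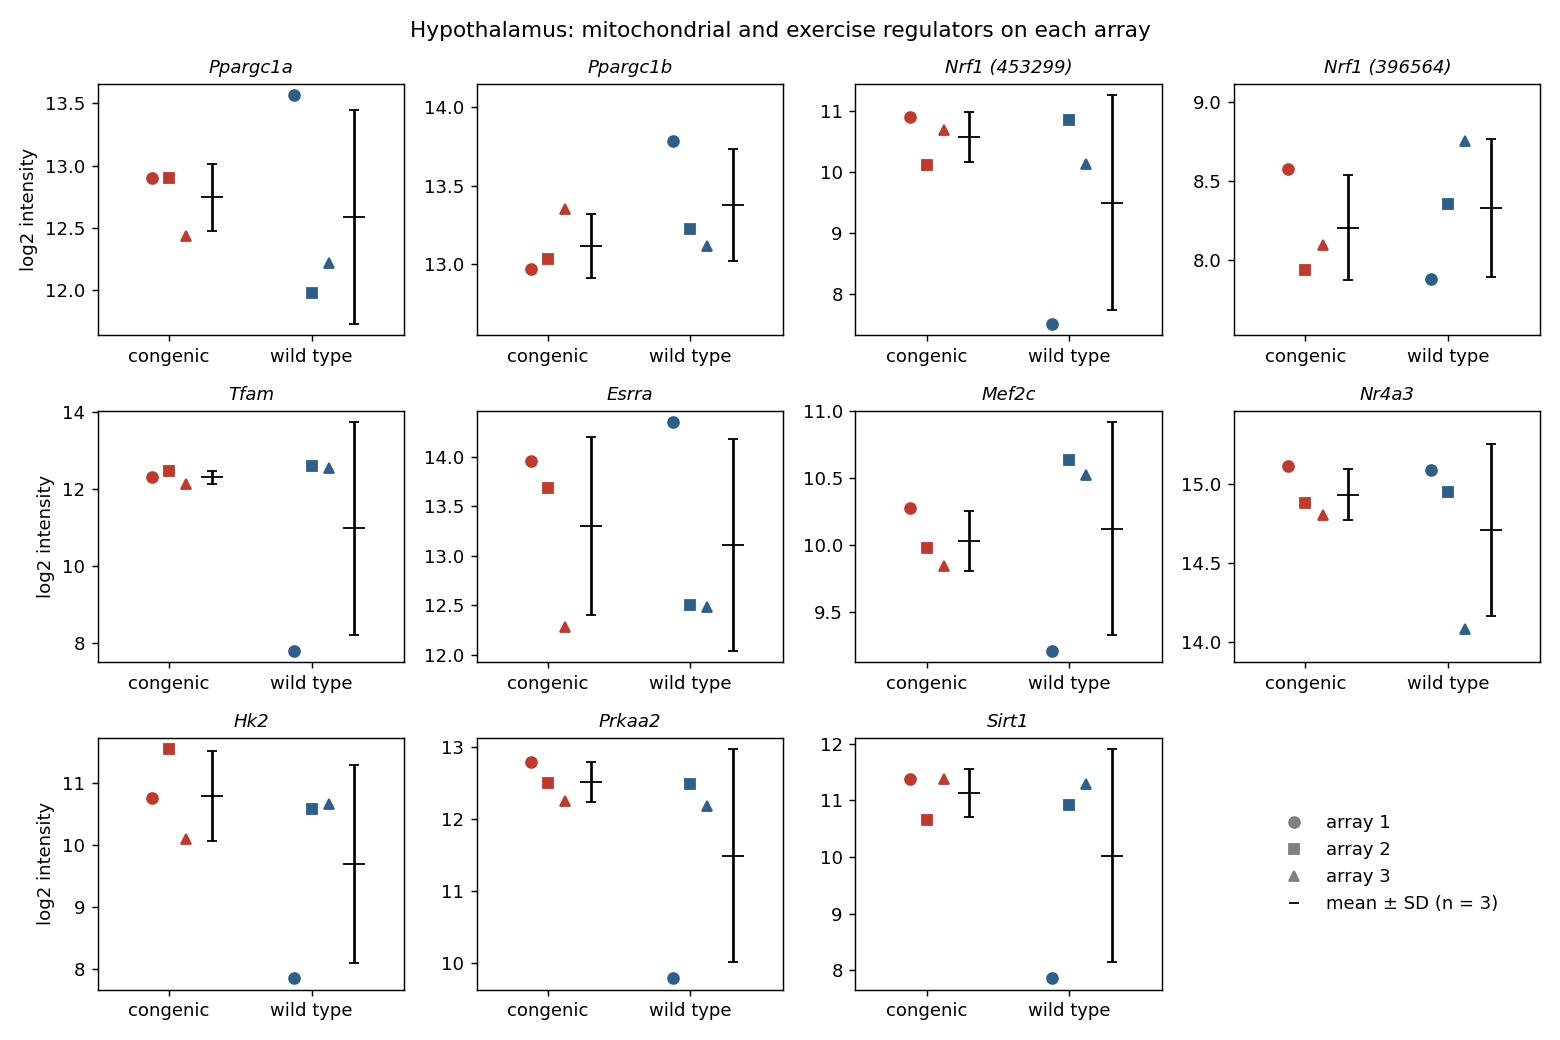
Log2 intensity of the 11 probes on each hypothalamus array, congenic in red on the left and wild type in blue on the right, with mean and SD (n = 3) in black. Wild type array 1 (blue circle) is the lowest of 6 for Tfam (7.78), Sirt1 (7.86), Hk2 (7.85), Prkaa2 (9.78) and the brighter Nrf1 probe (7.51).

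Most, not all, of the related lists had other medians in hypothalamus once wild type array 1 was left out. Over all named genes 51.2% were lower in congenic hypothalamus, with a median of -0.02, and 55.5% without wild type array 1, with a median of -0.07. PGC-1 partners had a median of 0.65 with all arrays and -0.05 without wild type array 1, and AMPK genes had 0.75 and -0.11. Sirtuins and NAD genes had 0.37 and 0.00, MEF2 factors and deacetylases -0.09 and -0.23, NR4A and exercise-induced genes 0.10 and -0.33, and hexokinases 1.04 and 0.17. Genes for mitochondrial DNA transcription and replication were lower in 7 of 15 cases with all arrays, and in 12 of 15 without wild type array 1, with medians of 0.00 and -0.39. Nuclear receptors and respiratory factors moved little, with medians of -0.20 and -0.13 and 6 of 10 genes lower both times. Fusion and fission genes had positive medians of 0.81 and 0.62, and 6 and 5 of 7 were higher in congenic hypothalamus.

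Whether the strain difference was unlike in the 2 tissues was tested as an interaction over the 12 arrays, muscle minus hypothalamus. Only the hypothalamus titles call the congenic mice short. If the congenic mice differed between the tissues, that could not be told apart from a difference between tissues here. By limma 0 of 33012 probes passed (0%), 1198 (3.63%) had an unadjusted p under 0.05, and none of the 11 regulator probes was among these (unadjusted p = 0.0909 to 0.942, adjusted p = 0.913 to 0.992). The largest regulator values were -1.85 for the brighter Nrf1 probe (interval -4.03 to 0.34), -1.66 for Sirt1 (-3.95 to 0.63) and 1.53 for the dimmer Nrf1 probe (-0.37 to 3.43). Without wild type hypothalamus array 1 these were -0.85, -0.58 and 1.76. Ppargc1a, at -0.73 with all arrays, was then -1.22 (SE 0.52, limma adjusted p = 0.727) and the only regulator with an unadjusted p under 0.05, as had 6.74% of all probes. That fit kept congenic muscle array 3, without which the muscle difference of Ppargc1a was -0.10. With 1 of the 12 arrays left out at a time, the interaction value of Ppargc1a ran from -1.22 to -0.26.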

How the data were processed

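The authors deposited 33012 probe values per array, read here as log2 intensity from their range, since the unit is not named. Per the labels' protocols, digoxigenin-labelled cRNA was made from total RNA with a chemiluminescent kit. The 6 deposited arrays of a tissue share 1 distribution, as quantile normalization gives; no source used here names the software or background correction. The number of arrays limits the precision.

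Probes were named from the platform annotation (14411 with 1 gene symbol, 247 with several, the rest unnamed here), updated through GRCm38.p6 gene IDs. Groups and array numbers come from the titles. The lmFit and eBayes (trend) functions of limma 3.58.1, run in R 4.3.3, were applied in each tissue over all probes, without floor or filter, and as an interaction over all arrays, with Benjamini-Hochberg adjustment at 0.05. The fits were tested on simulated data. Probes of members were kept apart; of each related list, up to 4 genes with the largest absolute muscle difference are named. Members and lists were chosen with earlier results of these data known. Alternatives were arrays left out, a floor or filter at the 20th percentile, other eBayes settings, joint quantile normalization, 1 model for all arrays, a replicate block and, for list medians, the mean of all probes of a gene. Promoter sequences are from RefSeq, GRCm38.p6.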

Additional observations from a re-analysis of the deposited data

How the results depend on the processing

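The number of muscle probes called by limma, 6 as reported, was 2 with values floored at the 20th percentile, 2 with eBayes without trend and 1 in a model of all 12 arrays, and 2 to 8 with 1 array left out (2 when wild type array 2 was dropped, and 3 when congenic array 2 or wild type array 3 was). It was 6 with robust eBayes, joint quantile normalization, dim probes filtered out or a replicate block. In hypothalamus and in the interaction the count was 0 to 0 with each array left out and 0 under each other alternative, the replicate block included. Whether the replicate numbers pair the arrays is not settled by these values. Deviations of same-numbered congenic and wild type arrays correlated at 0.0147 to 0.0695 in muscle and -0.129 to 0.138 in hypothalamus. Each congenic muscle array correlated best with the wild type array of its own number, and in hypothalamus only congenic array 1 did. With the block 2016 muscle probes had an unadjusted p under 0.05, against 1653 without it. No regulator probe passed under any alternative (lowest limma adjusted p 0.642). In muscle 77 of 77 values under alternatives that kept all arrays kept their direction, and 63 of 66 with 1 array left out, the exception being Esrra (-0.16 to 0.11). In hypothalamus, when both number 1 arrays were dropped, Ppargc1b gave 0.0214, the brighter Nrf1 probe -0.0904, Tfam -0.28 and Sirt1 -0.092, each with a turned sign. With 1 hypothalamus array left out, signs turned for Esrra (-0.13 to 0.81), Mef2c (-0.55 to 0.17), Nr4a3 (-0.0871 to 0.42), the dimmer Nrf1 probe (-0.35 to 0.0867), Ppargc1a (-0.15 to 0.65) and Tfam (-0.27 to 2.14). In the interaction they turned for Esrra (-0.81 to 0.13), Ppargc1b (-0.31 to 0.11) and Tfam (-2.34 to 0.0684). Where no array was named the cause was not tested. Signal over background is unknown, which limits the dimmer Nrf1 probe most.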
